A study of Homo sapiens with 32 samples.

Results

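Gene desert loops are chromatin loops whose whole interval, from the start of the left anchor to the end of the right anchor, overlapped no protein-coding gene body of the GENCODE annotation of hg38. Among 45629 loops in 4 lists, 3168 met this rule. They were 1463 of 15180 loops in control wild-type HEK293 cells, 257 of 5906 in sorbitol-treated wild-type cells, 1323 of 18966 in control eGFP-YAP cells and 125 of 5577 in sorbitol-treated eGFP-YAP cells. The assay was in situ Hi-C, in which DNA segments that lie close together in intact nuclei are ligated and sequenced. HEK293 is a human embryonic kidney line (the growth protocol writes HEK293T), eGFP-YAP is the label of HEK293 cells with YAP fused to a green fluorescent protein, and treated cells received 200 mM sorbitol, which draws water out of cells, for 1 h. Whether the eGFP-YAP line is 1 clone, and how the fusion is driven, is not given in the sources used here. The design text mentions serum starvation for eGFP-YAP cells in a time course; whether it applied to these lists is not stated.

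Control and sorbitol have 3 samples apiece in wild-type cells and 4 apiece in eGFP-YAP cells by the labels, but each condition has 1 loop list. No difference below has a replicate check, no test between conditions was possible, and all intervals are 95% intervals for counting error only. Sequencing depth is not given, and the number of loops in a list is not a measure of it. Cell line and the source named in the titles of the lists cannot be told apart, so the lines are described side by side.

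A chromatin loop is a pair of distant DNA segments that meet more often than their surroundings. Many loops form when the cohesin ring extrudes DNA until it stops at the DNA-binding protein CTCF, typically at a pair of CTCF motifs that point towards each other. Gene deserts are long stretches of DNA without protein-coding genes; some hold distant enhancers of developmental genes at their edges, and many hold long non-coding RNA (lncRNA) genes.

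The following anchor sequences hold the CTCF motif in gene desert loops called in several lists, and are a selection from the loops described below. Each is read 5′ to 3′ on the strand that carries the motif in hg38, with the motif in capitals and 20 bases on each side. The first pair lies at the left and right anchors of a chromosome 13 loop between LMO7 and KCTD12 that was called in all 4 lists. The next 3 lie at the right anchors of other loops called in all 4 lists. The last pair lies at the anchors of a chromosome 14 loop called only with sorbitol in both lines.
LMO7 side, chr13:75876557-75876610, plus strand: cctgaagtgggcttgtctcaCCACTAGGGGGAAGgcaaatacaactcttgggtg
KCTD12 side, chr13:76473710-76473763, minus strand: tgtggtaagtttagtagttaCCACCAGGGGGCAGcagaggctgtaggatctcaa
Between NPVF and NFE2L3, chr7:25566016-25566069, minus strand: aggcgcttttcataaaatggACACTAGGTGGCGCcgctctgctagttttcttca
Between ANKRD18B and PRSS3, chr9:33722225-33722278, minus strand: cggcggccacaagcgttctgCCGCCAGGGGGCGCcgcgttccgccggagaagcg
Between MRPS9 and GPR45, chr2:105238102-105238155, minus strand: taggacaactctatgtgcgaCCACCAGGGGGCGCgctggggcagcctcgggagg
T-cell receptor locus, left anchor, chr14:22387569-22387622, plus strand: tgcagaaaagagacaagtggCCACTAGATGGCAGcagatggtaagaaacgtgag
T-cell receptor locus, right anchor, chr14:22540176-22540229, minus strand: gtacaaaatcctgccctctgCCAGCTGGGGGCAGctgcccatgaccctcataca
The right-hand motif of the chromosome 13 loop, the chromosome 2 motif and the left-hand motif of the chromosome 14 loop matched the motif with 0 mismatches, and the others with 1 mismatch. On both chromosome 13 and chromosome 14, the plus-strand motif on the left and the minus-strand motif on the right point towards each other. Not all loops described below have this arrangement. In the chromosome X loop the motifs at both anchors are on the minus strand, and in the POU3F3 loop the right-anchor motif is on the plus strand.

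Gene desert loops made up a smaller share of the list with sorbitol in both lines. In wild-type cells the share was 9.64% (9.18 to 10.1%) in the control list and 4.35% (3.86 to 4.90%) in the sorbitol list. In eGFP-YAP cells it was 6.98% (6.62 to 7.35%) in the control list and 2.24% (1.88 to 2.66%) in the sorbitol list. The intervals of the control and sorbitol shares did not overlap in either line. All 4 shares were below what the genome offers: when an interval of the same span was placed at every 5 kb position of the same chromosome, 25.5%, 25.45%, 24.2% and 23.9% of positions were free of protein-coding genes, in the order of the lists above. Observed gene desert loops were 0.379, 0.171, 0.288 and 0.0939 times the number these positions give.

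**Figure D1:**
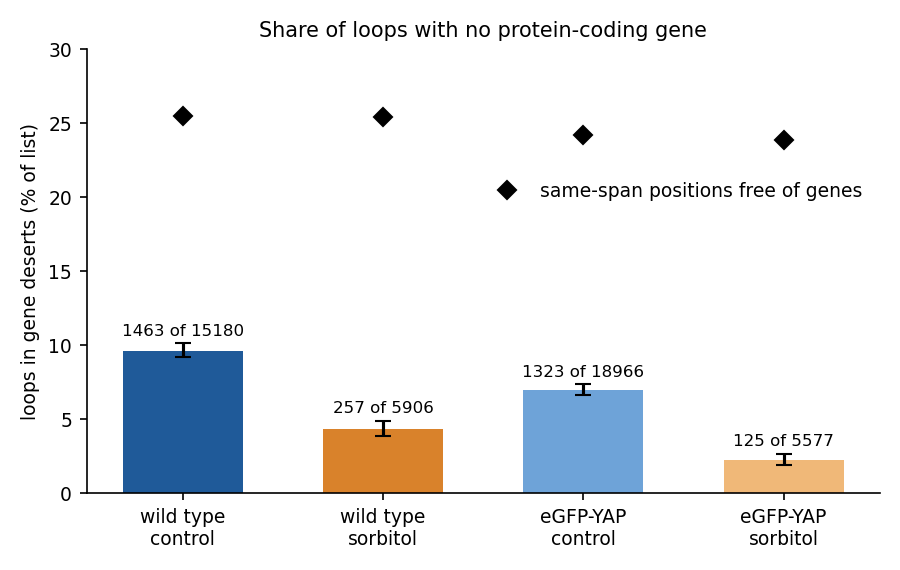
Bars give the percent of each loop list that lies in gene deserts, with 95% Wilson intervals, and diamonds give the percent of same-span genome positions free of protein-coding genes. The share was 9.64% and 6.98% in the control lists and 4.35% and 2.24% in the sorbitol lists, each below its diamond.

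Sorbitol lists were shorter than control lists, and gene desert loops were fewer beyond that. The sorbitol list held 0.176 gene desert loops per control gene desert loop in wild-type cells (0.153 to 0.201), against 0.412 (0.399 to 0.425) for all other loops. In eGFP-YAP cells the values were 0.0945 (0.0780 to 0.114) and 0.309. The gene desert ratio was therefore 0.427 times the ratio of other loops in wild-type cells and 0.306 times in eGFP-YAP cells.

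The contrast with other loops was present in each class of span, the distance between the anchors. It was least in loops under 100 kb, where the gene desert ratio was 0.340 (0.253 to 0.452) in wild-type cells and 0.238 (0.168 to 0.331) in eGFP-YAP cells, against 0.540 and 0.407 for other loops. It was greatest from 200 to 500 kb, where 77 sorbitol against 626 control loops gave 0.123 (0.0958 to 0.156) in wild-type cells and 28 against 556 gave 0.0504 (0.0332 to 0.0736) in eGFP-YAP cells. Other loops of that span had ratios of 0.398 and 0.296. The median span of gene desert loops was 245 kb (230 to 260) and 170 kb (150 to 205) in the control and sorbitol lists of wild-type cells, and 260 kb (250 to 275) and 140 kb (115 to 175) in those of eGFP-YAP cells. Other loops had medians of 240 and 215 kb in the wild-type lists. Loops under 100 kb made up 13.3% of control and 25.7% of sorbitol gene desert loops in wild-type cells, and 14.3% and 36.0% in eGFP-YAP cells.

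**Figure D2:**
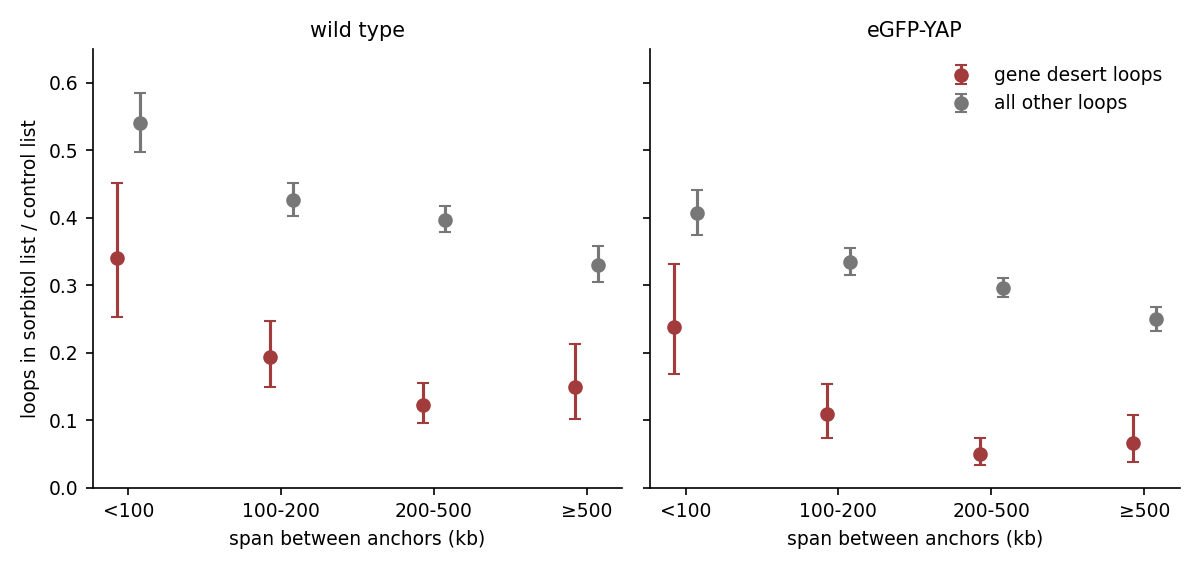
Points give the number of loops in the sorbitol list divided by that in the control list (vertical axis) for each class of span in kb (horizontal axis), with 95% exact intervals, for gene desert loops and all other loops. Gene desert loops lie below other loops in every class of both lines, down to 0.123 in wild-type and 0.0504 in eGFP-YAP cells at 200 to 500 kb.

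Within gene deserts, loops were concentrated near genes in every list. The median distance from a gene desert loop to the nearest protein-coding gene was 60.3 kb (55.2 to 67.3) in wild-type control, 55.9 kb (47.1 to 81.0) in wild-type sorbitol, 64.1 kb (59.0 to 70.5) in eGFP-YAP control and 35.1 kb (18.4 to 57.2) in eGFP-YAP sorbitol. In the wild-type control list, loops under 10 kb from a gene were 1.45 times as many as positions give, those 10 to 50 kb away 0.935 times, those 50 to 200 kb away 0.447 times, those 200 to 500 kb away 0.228 times and those at 500 kb and over 0.0880 times. The eGFP-YAP control list ran from 1.23 under 10 kb to 0.0851 at 500 kb and over. In the sorbitol lists the value was below 1 in every class, with 0.771 down to 0.0595 for wild-type and 0.683 down to 0.0144 for eGFP-YAP cells.

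**Figure D3:**
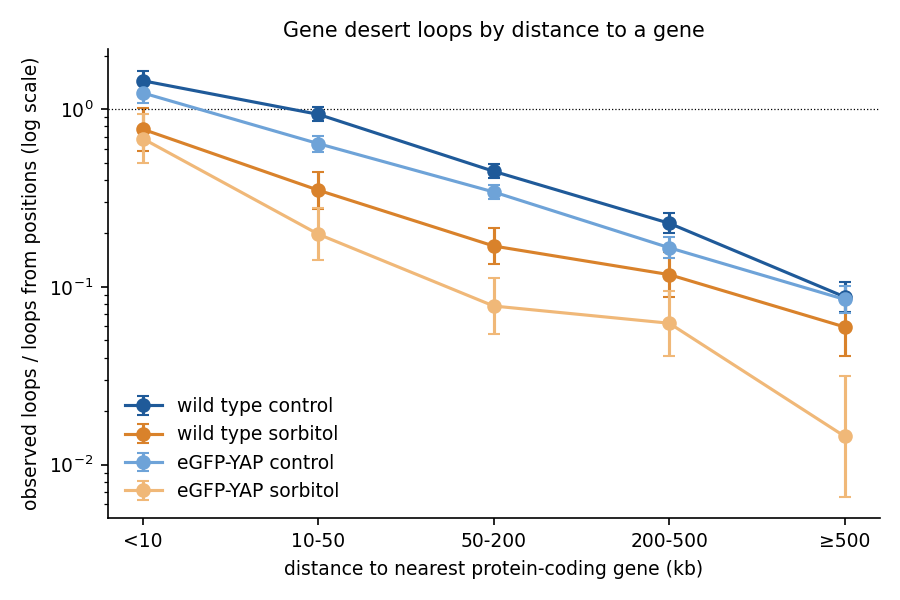
The vertical axis (log scale) gives observed gene desert loops divided by the number that same-span genome positions give, and the horizontal axis gives the distance to the nearest protein-coding gene in kb, with 95% intervals for counting error. Values descend with distance in all 4 lists, from 1.45 to 0.0880 in wild-type control and from 0.683 to 0.0144 in eGFP-YAP sorbitol.

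The sorbitol to control ratio did not follow distance in a single direction. In wild-type cells it was 0.222 (0.159 to 0.305) under 10 kb, 0.152 from 10 to 50 kb, 0.149 from 50 to 200 kb, 0.196 from 200 to 500 kb and 0.260 (0.163 to 0.400) at 500 kb and over. Neighbouring intervals in that series overlap. In eGFP-YAP cells it was 0.170 (0.116 to 0.241) under 10 kb, 0.0922 from 10 to 50 kb, 0.0654 (0.0430 to 0.0959) from 50 to 200 kb, 0.106 from 200 to 500 kb and 0.0500 (0.0180 to 0.112) at 500 kb and over. The farthest class rests on 27 wild-type and 6 eGFP-YAP sorbitol loops. Of the 27, which lay in 15 gene-free intervals, 5 were in 1 interval between MAT2B and TENM2.

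Few control gene desert loops had a partner in the sorbitol list, where a partner has both anchor centres within 10 kb. In wild-type cells 55 of 1463 (3.76%, 2.90 to 4.86%) had one, against 7.81% of all control loops and 8.25% of loops outside gene deserts. In eGFP-YAP cells 29 of 1323 (2.19%, 1.53 to 3.13%) had one, against 9.28% of all control loops and 9.81% outside gene deserts. The gene desert share was thus below the background in both lines. Each list was divided into 5 equal parts by the caller's peak score. In the part with the highest scores, 15 of 216 (6.94%) wild-type and 17 of 193 (8.81%) eGFP-YAP control gene desert loops were called again, against 19.3% and 23.5% of other loops in that part. In the part with the lowest scores, 8 of 351 (2.28%) and 3 of 313 (0.958%) were, against 3.76% and 3.91% of other loops. In the part next to the highest, 18 of 254 (7.09%, 4.53 to 10.9%) wild-type gene desert loops were called again, and 7.80% of other loops were. The median score percentile of gene desert loops was 42.7 (40.4 to 44.9) in wild-type control, 43.9 (37.1 to 51.2) in wild-type sorbitol, 44.5 in eGFP-YAP control and 42.3 in eGFP-YAP sorbitol, against 50.8 for other wild-type control loops.

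Wild-type control loops that were called again were shorter and nearer to genes than those that were not. Their median span was 125 kb (100 to 185) against 250 kb (235 to 265), and their median distance to a gene was 24.6 kb (15.1 to 54.6) against 61.9 kb (55.8 to 68.5). In eGFP-YAP cells the called-again medians were 185 kb (105 to 400) and 27.4 kb (11.55 to 89.9), against 260 kb and 65.1 kb. In that line the intervals overlap.

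Most sorbitol gene desert loops had no partner in the control list of their line, as did most sorbitol loops. The count was 206 of 257 (80.2%) in wild-type cells, where 79.9% of all sorbitol loops had none, and 95 of 125 (76.0%, 67.8 to 82.6%) in eGFP-YAP cells, where 68.4% had none. The wild-type share is near its background, and the interval of the eGFP-YAP share covers its background. Of the 206 wild-type sorbitol-only loops, 15 (7.28%) were also sorbitol-only in eGFP-YAP cells and 13 (6.31%) had a partner in the eGFP-YAP control list, against 15.9% and 13.45% of other wild-type sorbitol-only loops. Of the 1408 wild-type control-only loops, 293 (20.8%) were control-only in eGFP-YAP cells, against 34.95% of other wild-type control-only loops. In the reverse direction 286 of 1294 (22.1%) were control-only in wild-type cells, against 27.7% of other eGFP-YAP control-only loops.

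Partners in the same condition of the other line were counted next. Of wild-type control gene desert loops, 22.6% had a partner in the eGFP-YAP control list, against 40.2% of all loops. Of eGFP-YAP control gene desert loops, 24.4% had one in the wild-type control list, against 32.2%. With sorbitol the shares were 10.9% against 24.2% for wild-type and 20.8% (14.6 to 28.7%) against 25.7% for eGFP-YAP loops, and only the eGFP-YAP interval covers its background. Under 10 kb from a gene, 33.8% (27.8 to 40.3%) of wild-type control gene desert loops recurred, and at 500 kb and over 16.35% (10.5 to 24.6%) did. Only 10 of 1463 wild-type control gene desert loops were called in all 4 lists (0.684%, 0.372 to 1.25%), against 402 of 13717 other loops (2.93%).

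The CTCF motif was searched by name on both strands with at most 1 mismatch, and 8.69% of all 5 kb bins of the genome and 7.71% of bins free of protein-coding genes held it. At gene desert anchors the share was 17.8% (16.4 to 19.2%) in wild-type control, 14.01% (11.3 to 17.3%) in wild-type sorbitol, 24.2% (22.6 to 25.9%) in eGFP-YAP control and 18.4% (14.1 to 23.7%) in eGFP-YAP sorbitol. The same anchors moved by 100 kb to gene-free positions held it at 6.65%, 7.24%, 7.15% and 10.4%. Anchors of other loops held it more often in each list, at 25.6%, 21.5%, 34.8% and 28.4%. The eGFP-YAP control share did not vary with distance to a gene beyond counting error. It was 23.2% (19.45 to 27.4%) under 10 kb and 24.2% (19.2 to 30.0%) at 500 kb and over. In wild-type control it was 19.4% and 16.35%, with overlapping intervals. Sorbitol shares were lower far from genes, though nearest and farthest intervals overlapped. Wild-type sorbitol had 19.8% under 10 kb, 8.57% from 50 to 200 kb and 14.4% from 200 to 500 kb. At 500 kb and over it had 5.56%, as did its moved anchors. In eGFP-YAP sorbitol the share was 24.3% under 10 kb and 7.14% from 200 to 500 kb (moved anchors 6.02%). At 500 kb and over 0 of 12 anchors held it. Of eGFP-YAP control anchors, 29 of 58 (50%, 37.5 to 62.5%) in called-again gene desert loops held the motif, against 23.65% (22.05 to 25.3%) in control-only ones. In wild-type cells these were 27.3% (19.8 to 36.3%) and 17.4% (16.0 to 18.8%). Other loops differed in the same direction. Their called-again and control-only anchors held the motif at 50.5% and 33.1% in eGFP-YAP control and at 37.1% and 24.6% in wild-type control.

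**Figure D4:**
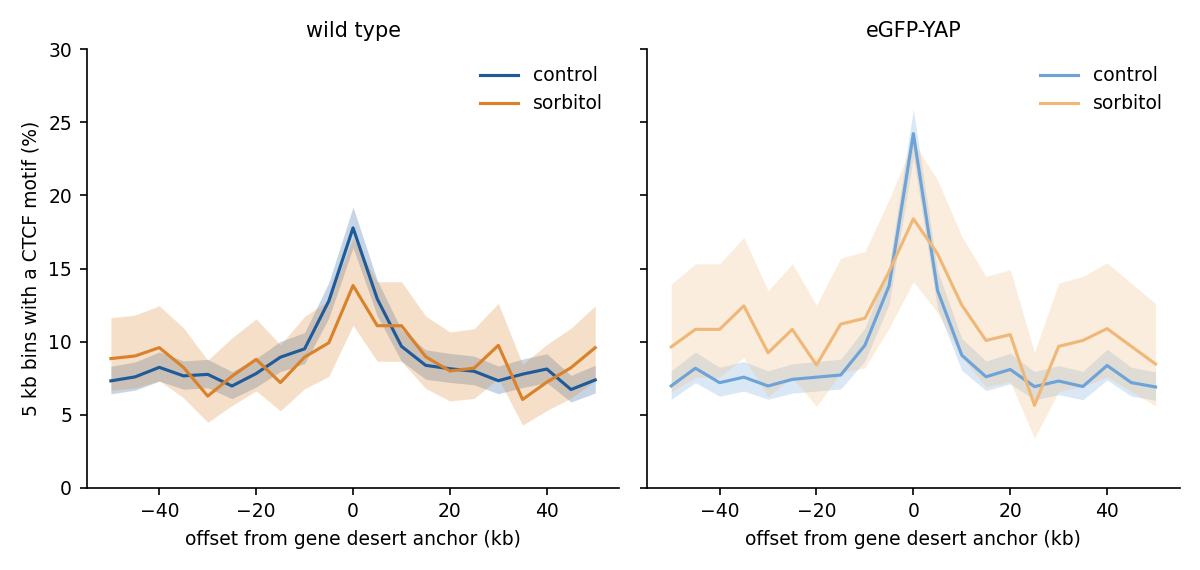
The vertical axis gives the percent of 5 kb bins that hold a CTCF motif and the horizontal axis the offset in kb from gene desert anchors, with bands of 95% Wilson intervals; bins with 10% or more unsequenced bases were left out. The control curves peak at the anchor, near 17.8% in wild-type and 24.2% in eGFP-YAP cells, and the wider sorbitol bands peak at 13.8% and 18.4%.

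Motif pairs could be scored for direction in few gene desert loops. Of loops with motifs on a single strand at each anchor, 32 of 53 (60.4%, 46.9 to 72.4%) in wild-type control and 70 of 105 (66.7%, 57.2 to 74.95%) in eGFP-YAP control were convergent, against 67.8% and 76.6% of other loops. In the sorbitol lists 5 of 6 (43.65 to 97.0%) and 3 of 7 (15.8 to 74.95%) were convergent.

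The base composition of the anchors differed between lists. Median GC content was 39.9% in wild-type control, 40.95% in wild-type sorbitol, 39.5% in eGFP-YAP control and 42.8% in eGFP-YAP sorbitol, all below the 42.7%, 46.4%, 42.6% and 46.9% of other loops. Anchors with a CpG island-like window made up 35.4% (33.7 to 37.1%) and 43.4% (39.2 to 47.7%) of wild-type control and sorbitol gene desert anchors, and 33.0% (31.2 to 34.8%) and 52.4% (46.2 to 58.5%) of eGFP-YAP ones. Moved anchors had 30.5%, 34.4%, 28.2% and 46.0%, and anchors of other loops 51.8%, 70.3%, 53.1% and 74.7%, in the order of the lists. Anchors of other loops can overlap protein-coding genes, which gene desert anchors cannot by rule. Those that overlapped none had such a window at 47.6%, 58.9%, 49.2% and 62.6%. Their median GC content was 42.7%, 44.5%, 42.7% and 45.0%. AP-1 motifs (TGANTCA, read on both strands) occurred at 0.349, 0.348, 0.343 and 0.350 per kb and TEAD motifs (CATTCC, read on both strands; TEAD proteins bind YAP) at 0.592, 0.603, 0.590 and 0.634 per kb. Moved anchors had 0.353, 0.351, 0.348 and 0.323 AP-1 motifs and 0.633, 0.591, 0.595 and 0.576 TEAD motifs per kb. Among all 5 kb bins, 77.7% hold an AP-1 and 93.2% a TEAD motif, so their presence alone does not mark an anchor.

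Most gene desert loops crossed non-coding genes. An lncRNA gene was overlapped by 81.1% (79.0 to 83.0%), 79.0% (73.6 to 83.5%), 80.4% (78.2 to 82.5%) and 77.6% (69.5 to 84.0%) of them, in the order of the lists, against 65.7%, 62.8%, 65.7% and 60.5% of same-span gene-free positions. Loops over no annotated gene of any type were 7.72%, 9.34%, 7.63% and 8.80%, against 20.2%, 23.85%, 20.8% and 27.1% of same-span gene-free positions. In eGFP-YAP cells an lncRNA start lay in 10.4% (7.20 to 14.8%) of sorbitol anchors and 4.99% (4.22 to 5.89%) of control anchors, while in wild-type cells the shares were 4.47% and 4.55%. Other loops had 12.2% and 5.76% in eGFP-YAP and 9.86% and 5.40% in wild-type sorbitol and control anchors. Their anchors free of protein-coding genes had 8.96% and 5.85% in eGFP-YAP and 7.38% and 5.28% in wild-type cells. Moved gene desert anchors had 2.47% and 3.22% in eGFP-YAP and 3.14% and 3.39% in wild-type cells. The rule counts immune receptor loci as gene deserts, since their segments have their own annotation types: 8, 5, 13 and 9 gene desert loops overlapped such segments, 7.20% of the eGFP-YAP sorbitol loops and 1.95% or less in the other lists.

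Chromosome 13, long and gene-poor, had the highest gene desert share in both control lists, 21.5% (18.7 to 24.7%) for wild-type cells and 16.1% (13.5 to 19.2%) for eGFP-YAP cells. With sorbitol it had 8.55% (5.60 to 12.8%) and 8.76% (5.08 to 14.7%). On gene-dense chromosome 19, 1 of 280 and 4 of 447 control loops lay in gene deserts.

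Loops gathered in some gene-free intervals. Of 15651 intervals between protein-coding genes, most of them short, 950 held at least 1 gene desert loop. Of the 2783 intervals of 100 kb or more, 910 held one. Loops were in control lists only in 739 intervals, in sorbitol lists only in 49, and in all 4 lists in 30. The control lists held 1463 and 1323 gene desert loops, and the sorbitol lists 257 and 125. Intervals of 2 Mb and over held a loop in 67 of 105 cases. Intervals from 300 kb to 1 Mb had the highest density in wild-type control, 15.6 loops per 10 Mb of sequenced bases, against 6.15 in intervals of 2 Mb and over.

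The interval between NPVF, a neuropeptide precursor gene, and NFE2L3, which encodes a basic leucine zipper transcription factor, is 924 kb long on chromosome 7 (25228487 to 26152197) and held loops in all 4 lists. It had 9 loops in wild-type control, 6 in wild-type sorbitol, 8 in eGFP-YAP control and 4 in eGFP-YAP sorbitol. The same few positions recurred as anchors in both control lists, about 29.0, 164, 339 and 619 kb from NPVF. The loop from 29.0 to 339 kb had score percentiles of 93.15 and 88.2 in wild-type control and sorbitol and of 98.8 and 93.2 in eGFP-YAP control and sorbitol. Its right anchor holds the chromosome 7 motif shown above, except in wild-type sorbitol, where the partner ends at 329 kb. Both control lists had loops at the position near 164 kb, and neither sorbitol list did. Both sorbitol lists also had a loop that joined 634 kb to a position at or next to the start of the microRNA gene MIR148A. The wild-type anchor, at 719 kb, holds that start, and the eGFP-YAP anchor, at 724 kb, is the next 5 kb bin. This loop had percentiles of 92.8 and 92.5 in the sorbitol lists and no partner in either control list.

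The interval between KCNJ2, a potassium channel gene, and SOX9, a transcription factor gene of cartilage and gonad development whose distant enhancers lie in this desert, is 1941 kb long on chromosome 17 (70180045 to 72121019). It held 7 loops in wild-type control, 5 in wild-type sorbitol, 12 in eGFP-YAP control and 0 in eGFP-YAP sorbitol. In both control lists a loop ran from 1297 kb to within 10 kb of SOX9, with percentiles of 77.3 and 66.2. The 5 wild-type sorbitol loops lay between 497.5 and 1007 kb, and none had a control partner.

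**Figure D5:**
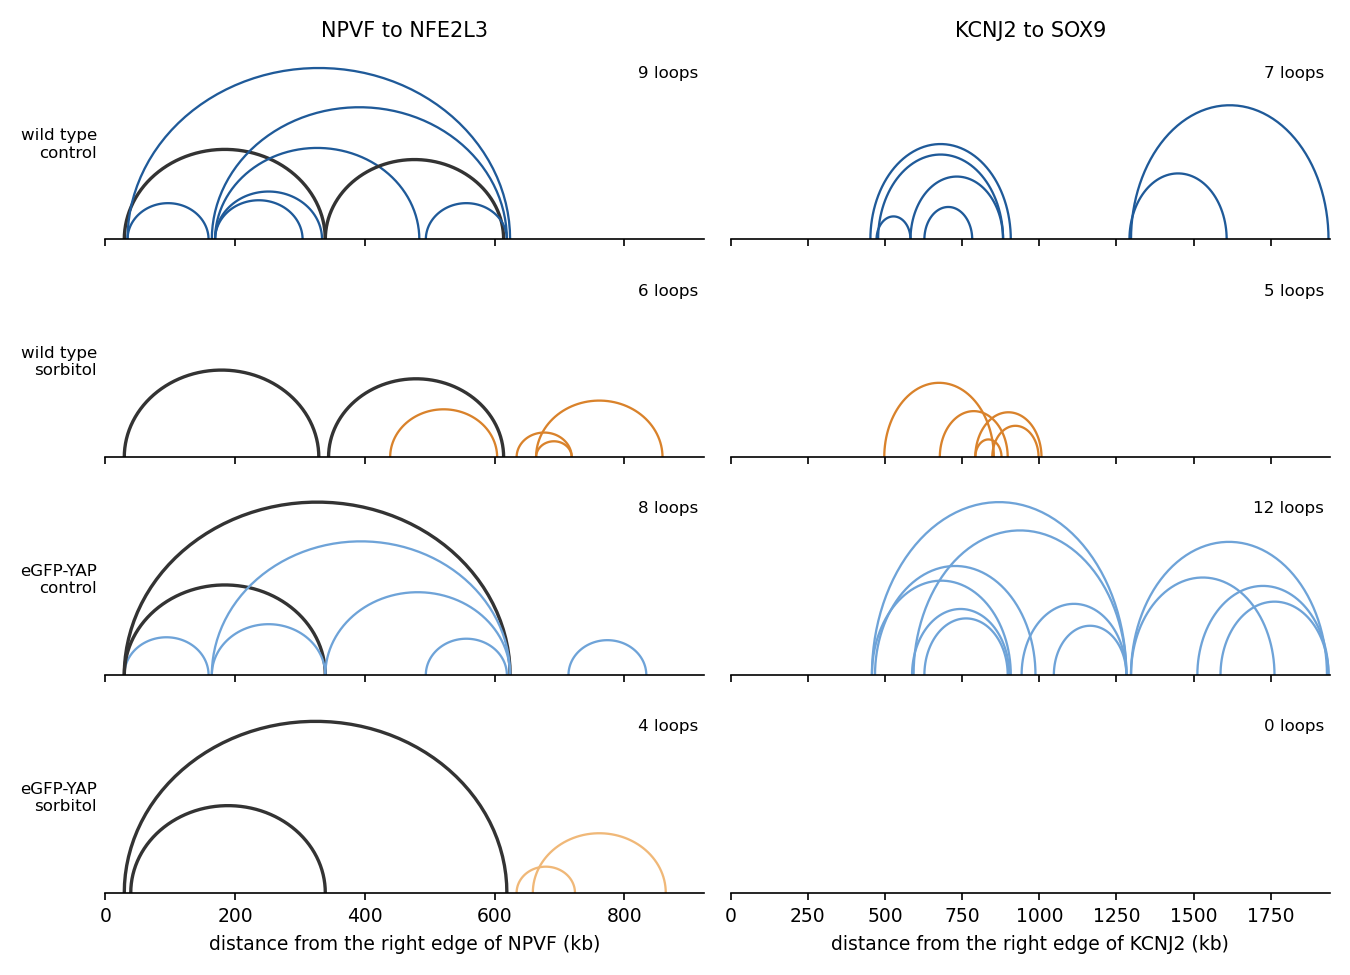
Arcs join the anchors of each gene desert loop in the NPVF to NFE2L3 and KCNJ2 to SOX9 intervals, 1 row per list; the horizontal axis is the distance in kb from the right edge of the left gene, arc height follows span, and dark arcs have a partner in the other condition of the line. In the first interval 9, 6, 8 and 4 loops were called, and in the second 7, 5, 12 and 0.

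Another 3 of the intervals with the most loops are described here. The interval between PTPRC, a leukocyte phosphatase gene, and NR5A2, a nuclear receptor gene, held 11, 4, 7 and 0 loops, in the order of the lists above. SLITRK5 to GPC5, a desert of 3702 kb on chromosome 13 next to a glypican gene, held 12, 0, 10 and 0. MAT2B to TENM2 differed, with 7, 8, 5 and 4 loops. TENM2 encodes a teneurin, a cell adhesion protein. In that interval 4 eGFP-YAP sorbitol loops shared the left anchor chr5:164010001-164015000. It was also the left anchor of 2 wild-type sorbitol loops and the right anchor of 1 eGFP-YAP control loop. The next 5 kb bin, 497.9 kb from MAT2B, was a left anchor in both control lists and in wild-type sorbitol. Chosen after the values were seen, MCTP2 to NR2F2, next to a nuclear receptor gene of vascular development, held the most wild-type sorbitol loops of any interval outside chromosome 8, with 5, 9, 4 and 0 loops in the 4 lists.

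The gene desert loops called in all 4 lists with the highest mean score percentiles were near genes on at least 1 side. The chromosome 13 loop spanned 595 kb and lay 15.1 kb from LMO7, with percentiles of 96.6, 74.6, 96.4 and 87.8. Its left anchor holds the start of the lncRNA gene LMO7DN-IT1. The chromosome 9 loop spanned 100 kb between ANKRD18B and PRSS3, a trypsinogen gene, with percentiles of 97.9, 77.5, 99.8 and 78.6, and its left anchor covers the processed pseudogene ANXA2P2. The chromosome 2 loop spanned 125 kb between MRPS9, a mitochondrial ribosomal protein gene, and GPR45, an orphan receptor gene, with percentiles of 93.2, 85.4, 89.7 and 71.2.

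Loops called only with sorbitol in both lines included a 790 kb loop on chromosome 2 that reached to 8.29 kb from POU3F3, a transcription factor gene of neural development. Its right anchor lies in the lncRNA gene PANTR1, and its percentiles were 98.9 in wild-type and 88.4 in eGFP-YAP cells. The chromosome 14 loop with convergent motifs spanned 155 kb from TRD-AS1 to the joining segments TRAJ5 to TRAJ2 of the T-cell receptor alpha locus, 19.9 kb from DAD1, with percentiles of 93.1 and 63.0. On chromosome 4, between the adrenergic receptor gene ADRA2C and the proton channel gene OTOP1, a sorbitol-only loop of 170 kb had percentiles of 93.0 and 99.6. Its right anchor covers the pseudogene FAM86EP.

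In the same chromosome 4 interval a control-only loop of 190 kb, whose right anchor holds the start of the olfactory receptor pseudogene OR7E43P, had percentiles of 99.4 in wild-type and 99.9 in eGFP-YAP control. Both chromosome 4 loops thus touch copies of gene families, where reads can be assigned to a near-identical copy; that was not tested. A control-only loop of 165 kb on chromosome X joined the anchor holding the XIST start to one inside JPX and FTX, lncRNA genes of the X inactivation centre, with percentiles of 97.7 and 97.35. A control-only loop of 1005 kb on chromosome 1 lay over 1 Mb from AMY1C and from PRMT6, with percentiles of 98.1 and 96.8 and no CTCF motif at either anchor.

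Loops far from any protein-coding gene were few but could recur. The farthest of those in at least 2 lists spanned 115 kb on chromosome 13, 1573 kb from OLFM4, and was called in wild-type control (percentile 85.5) and sorbitol (90.05). On chromosome 3 a 125 kb loop 1315 kb from ZPLD1 was also called in both wild-type lists, at 69.9 and 73.2. On chromosome 5 a 420 kb loop 1224 kb from the cadherin gene CDH9 was called in both control lists, at 96.1 and 92.1. The longest eGFP-YAP sorbitol gene desert loop outside chromosome 8 spanned 1055 kb between the cadherin genes CDH8 and CDH11 on chromosome 16. It was called in wild-type control (97.7), eGFP-YAP control (96.1) and eGFP-YAP sorbitol (98.0) and not in wild-type sorbitol.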

How the data were processed

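The authors deposited 1 loop list per condition, with the column headers of the SIP loop caller; per the submitters' processing notes, the builds were hg38 and GRCh38. The caller's version and settings, the aligner, sequencing depth and which replicates entered each list are not given in the sources used here. The file headers give no scale for the deposited peak score, which was used only for rank within a list. The deposited probability of enrichment, a fraction of 0.9 or more, was not filtered. All anchors are 5 kb wide and none lies past an hg38 chromosome end. Gene bodies came from GENCODE release 44 (19970 protein-coding genes) on 23 chromosomes.

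Gene-free status, distances, matching within 10 kb and motifs were computed in Python 3.11.15 (numpy 2.4.6, pandas 2.3.3, scipy 1.17.1) and tested on simulated data. Shares have Wilson intervals, ratios exact Clopper-Pearson intervals and medians order-statistic intervals. These count each loop as independent, although some share an anchor or a gene-free interval. Positions count gene-free placements of the same span on the same chromosome. Loops named were the 4 highest by mean score percentile in each class, at most 1 per chromosome and none on chromosome 8, the 3 farthest, the longest per list and the 6 fullest intervals; 1 of these intervals is not reported here, and not all named loops are described. Anchor features of a named loop were read at its anchors in 1 list, and its partners in other lists may lie up to 10 kb away. The members and lists were chosen with earlier results of these data known. The other 18 samples were not analysed here.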

Additional observations from a re-analysis of the deposited data

Results flagged for a closer look

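With 1 list per condition, no sample could stand apart from its group. Of 21 contrasts between sorbitol and control gene desert loops that were computed in both lines, 5 had opposite signs, and none of these differences between lines was tested. At 500 kb and over from a protein-coding gene, the log2 of the sorbitol to control ratio relative to that of all gene desert loops was 0.56 for the wild type and -0.92 for eGFP-YAP, from 27 and 6 sorbitol loops. The median score percentile, sorbitol minus control, was 1.255 (wild type) and -2.17 (eGFP-YAP), smaller than the width of either sorbitol interval. The share of convergent motif pairs, sorbitol minus control, was 22.96 percentage points (wild type) and -23.8 (eGFP-YAP), from 6 and 7 scored sorbitol loops. The share of anchors with an lncRNA start was -0.070 and 5.41 percentage points, and AP-1 motif density -0.0011 and 0.0072 per kb.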

How the results depend on the processing

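No paired analysis was possible because each condition has 1 list without replicates. In all 18 alternative values, the gene desert ratio stayed below the ratio of other loops. For shares, ratios and partners within a line, the values that left their 95% interval come first, wild type before eGFP-YAP and control before sorbitol. Shares of gene desert loops were 8.22%, 3.54%, 5.83% and 1.58% with gene bodies widened by 10 kb, 0.744%, 0.406%, 0.533% and 0.197% with genes of any type, and 24.1%, 14.95%, 21.65% and 13.7% when only the anchors had to be gene-free. In the upper 50% of each list by score they were 8.235% (wild-type control), 6.19% and 1.79% (eGFP-YAP). Sorbitol to control ratios were 0.212 (genes of any type, wild type), 0.242 and 0.186 (anchors only) and 0.564 and 0.393 (control list shortened to the length of the sorbitol list); relative to other loops they were 0.544 and 0.369, 0.555 and 0.575, and 0.544 and 0.379. Called-again shares were 0.9901% (genes of any type, eGFP-YAP), 7.04% and 9.45% (anchors only), 7.02% and 6.29% (shortened), 7.11% and 3.55% (matching at 25 kb) and 0.547% and 0.302% (at 0 kb). Sorbitol loops without a control partner were 72.8% and 52.2% (anchors only), 59.5% and 61.6% (25 kb) and 96.9% and 96.8% (0 kb). With anchors only, the called-again share of eGFP-YAP exceeded that of other loops by 0.217 percentage points, a change of sign; this rule admits loops that span genes. Among the other measures, the share of anchors with a CTCF motif was 3.55%, 3.31%, 5.86% and 4.40% with no mismatch and 37.9%, 29.8%, 44.75% and 39.2% with anchors widened by 5 kb. Control loops called in the other control list were 35.3% and 37.6% at 25 kb and 3.62% and 4.01% at 0 kb. Median distances were 82.3, 95.1, 93.1 and 79.4 kb with bodies widened, which removes the nearest loops by construction. In the upper 50% by score, median spans were 300, 230, 325 and 207.5 kb. Leaving out chromosome X, unsequenced stretches or, chosen after seeing the data, immune receptor segments, and merging neighbouring loops, moved no share, ratio or partner share out of its interval. Sequencing depth is not known, so a loop missing from a shorter list may be undetected there.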
